A study of Rattus norvegicus with 12 samples.

Results

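Prostaglandins are made from arachidonic acid, which phospholipases release from membranes. The cyclooxygenases turn it into prostaglandin H2, terminal synthases shape the individual prostaglandins, and dehydrogenases and reductases then inactivate them. In the gut epithelium this pathway takes part in mucosal defence and inflammation, cyclooxygenase-2 is often raised in colon tumours, and aspirin acts by acetylating both cyclooxygenases. The genes described here are Pla2g4a and Pla2g2a (cytosolic and secreted phospholipase A2), Ptgs1 and Ptgs2 (cyclooxygenase-1 and cyclooxygenase-2), Ptgds (prostaglandin D synthase), Hpgd (15-hydroxyprostaglandin dehydrogenase) and Ptgr1 (prostaglandin reductase 1, which also acts on leukotriene B4). They were chosen by name, as every probe set whose single symbol in the array annotation is one of these 7 genes, of 4736 genes so named. That gave 8 probe sets of 8740, since Ptgs2 has 2, and 7 of the 8 were bright enough to be tested, among 6118 tested in all. The 7 genes were picked with earlier results of these data known, so their ranks are a description.

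The cells were CC531, an established rat colon carcinoma line, and total RNA was measured on 12 expression arrays. There were 2 untreated arrays (2 and 24 h), 5 arrays of cells given 4.5 mM butyrate (2, 6, 12, 16 and 24 h) and 5 of cells given 3 mM aspirin at the same hours, with 1 array for each treatment and hour. Butyrate is a short-chain fatty acid from bacterial fermentation and an inhibitor of histone deacetylases. The labels do not state whether each array had a culture of its own, and the p-values therefore reflect no more than the scatter of these 12 arrays. That scatter may be technical, and it includes changes over the hours.

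All 6 measured epithelial markers (Krt8, Krt18, Krt19, Epcam, Lgals4 and Cldn3) were above the detection floor, an intensity of 90.91, on every array. None of 5 blood and immune markers and none of 3 endothelial markers were above it throughout, and Cd8a, Lyz2 and Vwf were at it on every array. Of 6 fibroblast and smooth muscle markers, Col1a1, Col1a2 and Acta2 stood above it on every array. That list summed to between 4489 and 5532 in untreated cells, 3591 and 4546 with butyrate and 2085 and 4837 with aspirin. Whether it bears on the values below was not tested. The untreated arrays differed from each other at least 2-fold (24 against 2 h) on 16.5% of the tested probe sets, and the array of untreated cells at 24 h was closer to each treated array than the one at 2 h, by the correlation of log2 values. Actb, a common reference gene, changed by -0.35 ± 0.09 with butyrate (limma, adjusted p = 0.0292), but by -0.16 with quantile normalization (0.323), and it was called in 5 of 9 alternatives other than leaving out an array.

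The 2 cyclooxygenase genes are shown by the 250 bases before their annotated start (RefSeq, GRCr8). A Ptgs2 probe set was lower with butyrate, the reason for this choice. The other Ptgs2 probe set and Ptgs1 were not called in any comparison. Whether the motifs bear on these readings was not tested. The Ptgs1 window is chr3:39981169-39981418 and the Ptgs2 window chr13:64713813-64714062, both on the plus strand. Capitals mark matches, on either strand, to the motifs searched: TATAAA (the TATA box), GGGCGG (GC box), CCAAT (the box of that name), CACGTG (E box), TGACGTCA (cyclic AMP response element) and TGACNNNGC (core of the antioxidant response element). No marked matches overlap in these windows.
Ptgs1: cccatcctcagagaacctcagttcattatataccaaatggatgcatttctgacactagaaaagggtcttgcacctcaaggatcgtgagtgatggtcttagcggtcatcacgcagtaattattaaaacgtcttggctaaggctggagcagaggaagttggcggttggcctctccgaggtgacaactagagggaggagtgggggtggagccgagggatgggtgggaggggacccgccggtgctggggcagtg
Ptgs2: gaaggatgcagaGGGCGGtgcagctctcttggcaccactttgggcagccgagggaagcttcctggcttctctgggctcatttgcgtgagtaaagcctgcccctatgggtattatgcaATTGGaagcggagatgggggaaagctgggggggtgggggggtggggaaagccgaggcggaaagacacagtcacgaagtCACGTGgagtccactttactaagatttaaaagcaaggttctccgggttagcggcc
In these letters the Ptgs2 window held a GC box 238 bases before the start, a CCAAT box on the minus strand 133 bases before it and an E box 55 bases before it. Of 33469 rat windows of the same length, 30.5% held a GC box, 34.0% a CCAAT box and 5.59% an E box. The E box was added to the motifs with the Ptgs2 window in view. Its match there was known beforehand, and the 5.59% does not gauge how unusual that match is. The Ptgs1 window held no match to any of the 6 motifs, and TATAAA occurs in 12.9%, TGACGTCA in 1.59% and TGACNNNGC in 10.1% of all windows. Windows were matched for 6 of the 7 genes, all but Ptgr1. Pla2g4a and Ptgs2 are neighbours on chromosome 13, on opposite strands and facing away from each other, with 142 kb between their starts and no protein-coding gene annotated between them.

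Of these genes Ptgr1 had the largest changes. Its single probe set (U66322_at) read -4.7 in untreated cells at 2 h and 128.2 at 24 h. With butyrate it read 582.6, 812.6, 1648.3, 1715.7 and 1568.6 at 2, 6, 12, 16 and 24 h. With aspirin it read 820.5, 263.5, 584.0, 315.6 and 638.4 at the same hours. Every treated array of either drug lay above both untreated arrays, and the untreated 2 h array was at the floor. Such a rise on every array was shared by 14.7% of all tested probe sets with butyrate and by 3.81% with aspirin, and on all treated arrays by 1.65%. The comparisons share their untreated arrays.

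On the log2 scale, after values under the floor were raised to it, Ptgr1 averaged 6.75 ± 0.35 in untreated cells (SD, n = 2), 8.91 ± 0.70 with aspirin (n = 5) and 10.18 ± 0.71 with butyrate (n = 5). With butyrate it rose by at least 3.43 ± 0.51 (SE), or at least 10.7-fold, with an adjusted p of 0.00165 by limma. By size it ranked 9 from the highest of the 6118 probe sets tested, of which 11.7% were called, 7.78% higher and 3.92% lower. The rise was called whichever single array was left out, with an adjusted p of at most 0.0328 (without the untreated 2 h array, where it was 3.18). It was not called when only the 2 and 24 h arrays were used with time as a replicate block (3.15, adjusted p = 0.51).

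With aspirin the fitted change of Ptgr1 was at least 2.15 ± 0.51, or 4.44-fold (95% interval 1.05 to 3.25), but it did not pass the test over all probe sets (limma, adjusted p = 0.249). By size it ranked 3 from the highest of 6118 aspirin changes, of which only 0.147% were called in either direction. Hour by hour, aspirin minus untreated was 3.17 (log2) for Ptgr1 at 2 h and 2.32 at 24 h. The same differences with butyrate were 2.68 at 2 h and 3.61 at 24 h. Each rests on 1 array per side and has no test, and the 2 h differences are measured from an untreated array at the floor. Among all tested probe sets the share that differed 2-fold at the same hour was 18.1% (2 h) and 13.3% (24 h) with aspirin, and 16.2% and 28.4% with butyrate.

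**Figure D1:**
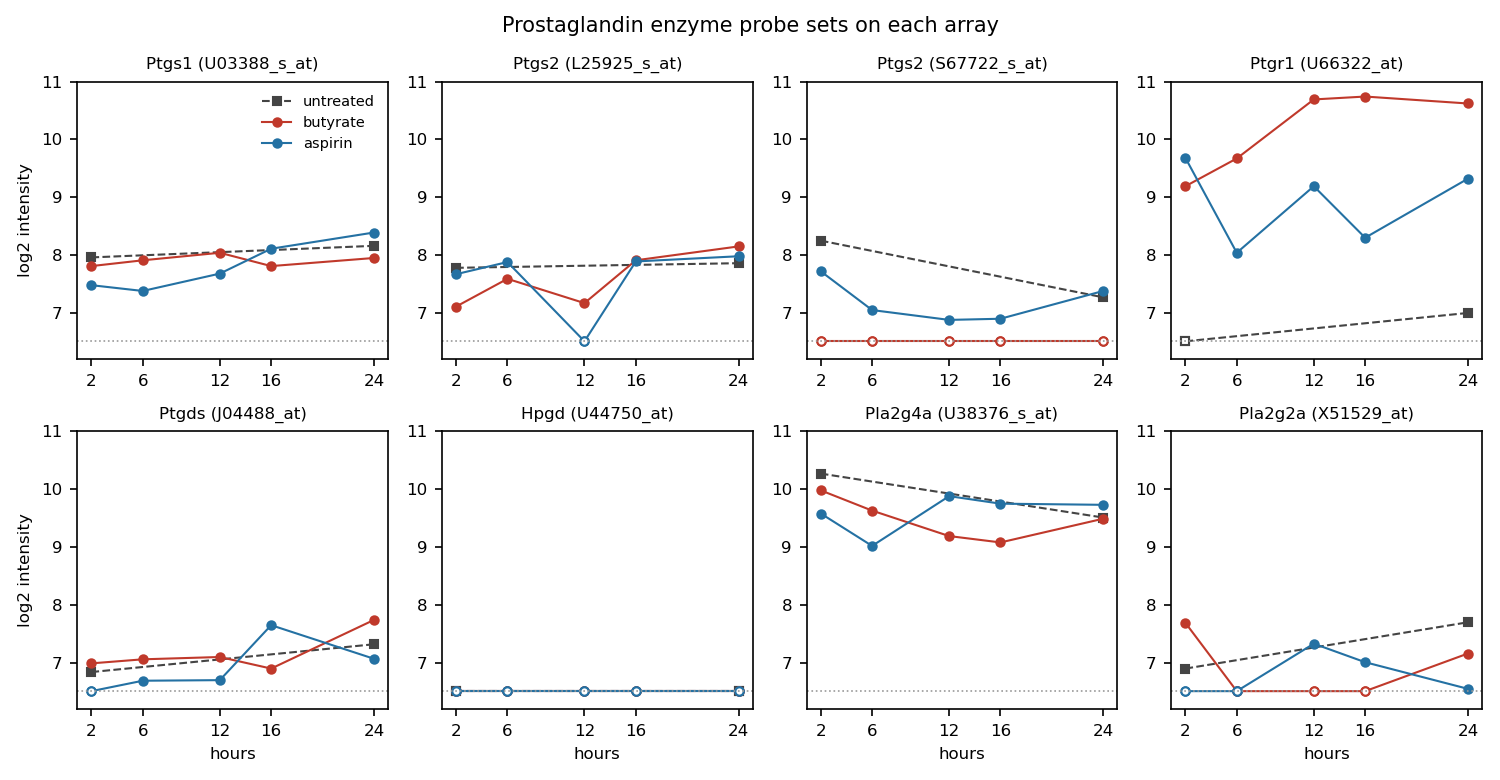
Log2 intensity (vertical axis) of the 8 probe sets against hours of culture or treatment, with 1 point per array: grey squares untreated, red butyrate, blue aspirin. Open symbols are at the floor, log2 6.51 (dotted line). Ptgr1 lies above both untreated arrays on every treated array, Ptgs2 (S67722_s_at) is at the floor on all 5 butyrate arrays, and Hpgd is at the floor on all 12.

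The drugs were also set against each other at matched hours. Ptgr1 was 0.49 lower (log2) with butyrate than with aspirin at 2 h, then higher by 1.62 at 6 h, 1.5 at 12 h, 2.44 at 16 h and 1.30 at 24 h. Over the 5 hours the mean difference was 1.27 ± 0.41 (95% interval 0.27 to 2.27, limma with time as a block), which missed the threshold (adjusted p = 0.0699). Of all probe sets tested, 25.2% were called in this comparison. The Ptgr1 difference passed when the drugs' 2 h pair lost either of its arrays (1.72, adjusted p of 0.0126 without butyrate 2 h and 0.0127 without aspirin 2 h). It also passed on a scale without a floor (1.22, 0.0314) and without time as a replicate block (1.27, 0.0463).

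Over the hours Ptgr1 had a fitted slope of 0.47 ± 0.19 (log2) per doubling of time with butyrate (limma, adjusted p = 0.166). With aspirin the slope was -0.12 ± 0.19 (adjusted p = 0.80), and without aspirin 2 h it turned positive (0.52, adjusted p = 0.34). The difference of the slopes, 0.60 ± 0.26 (95% interval -0.01 to 1.21), did not pass either (adjusted p = 0.283) and was -0.05 without aspirin 2 h. Of all probe sets, 8.99% had a called slope with butyrate, 1.65% with aspirin and 1.73% a called difference of slopes.

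Ptgs2, the inducible cyclooxygenase, gave different readings on its 2 probe sets. The first, S67722_s_at, read 305.0 and 154.0 in untreated cells at 2 and 24 h. With butyrate its readings were 16.4, -22.7, -54.0, 14.6 and -2.9, all at the floor. With aspirin they were 211.5, 132.6, 117.8, 119.6 and 167.0. The butyrate arrays lay below every untreated and every aspirin array, while the aspirin arrays overlapped the untreated pair.

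On this probe set Ptgs2 changed by -1.25 ± 0.28 on the log2 scale with butyrate, a fall of at least 2.38-fold (limma, adjusted p = 0.0141). All 5 butyrate values were set to the floor (SD 0.0), so they add no scatter to the standard error or p. The probe set passed the filter on dim probe sets through its untreated and aspirin arrays alone. Its calls are therefore given as a description. All butyrate arrays were below both untreated arrays, as on 13.2% of all tested probe sets. The size of the change is set by the floor: it was -2.12 with a floor of 50 and -0.30 with a floor of 200, where it was no longer called (adjusted p = 0.127). It rested on the untreated 2 h array, without which it was -0.76 (adjusted p = 0.126). It also missed the threshold with time as a factor (-1.07, 0.0666) and on the 2 and 24 h arrays with time as a replicate block (-1.25, 0.51). The untreated arrays themselves differed on this probe set, with 24 h lower than 2 h by 0.99. Butyrate minus untreated at the matching hour was -1.75 at 2 h and -0.76 at 24 h, both measured to the floor.

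With aspirin the change of the same probe set was -0.57 ± 0.28 (95% interval -1.17 to 0.03, adjusted p = 0.49 by limma). Against the same hour it was -0.53 at 2 h and 0.12 at 24 h. Butyrate lay below aspirin at all 5 hours, by at least 1.22 at 2 h, 0.54 at 6 h, 0.37 at 12 h, 0.40 at 16 h and 0.88 at 24 h, as it did on 13% of all tested probe sets. The mean difference of at least 0.68 ± 0.15 was called (limma, adjusted p = 0.0258), where 9.61% of all tested probe sets were called lower. With every butyrate value at the floor, this difference measures how far aspirin stood above the floor. The butyrate values add no scatter to its standard error or p, and it is given as a description. With a floor of 200 the difference was -0.02 (0.507). That call was lost without either drug's 6, 12, 16 or 24 h array, with an adjusted p of up to 0.0853, and with no filter on dim probe sets (0.0599). No slope with butyrate can be given, since all 5 values were at the floor, and with aspirin the slope was -0.15 ± 0.08 per doubling of time (adjusted p = 0.358).

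The other Ptgs2 probe set, L25925_s_at, read 220.5 and 232.2 in untreated cells. With butyrate it read 137.9, 192.2, 144.4, 240.3 and 283.3, and with aspirin 203.3, 236.0, 41.2, 237.9 and 252.0. Both series ran on either side of the untreated pair, and only aspirin 12 h was at the floor. Its changes were -0.24 ± 0.41 with butyrate (95% interval -1.12 to 0.64, adjusted p = 0.755 by limma) and -0.24 ± 0.41 with aspirin (-1.11 to 0.64, adjusted p = 0.896). Without aspirin 12 h the latter was 0.03. The difference between the drugs was 0.00 (95% interval -0.52 to 0.52). Over the 12 arrays the 2 probe sets of Ptgs2 correlated at r = 0.221, a description over arrays that share their treatments.

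Ptgs1, the cyclooxygenase that most tissues make constitutively, read 248.2 and 286.2 in untreated cells. With butyrate it lay between 224.0 and 262.7, at 224.2, 239.7, 262.7, 224.0 and 247.5. With aspirin it was 179.1, 166.5, 204.6, 276.1 and 335.9. The butyrate arrays and the untreated pair overlapped, and the aspirin arrays ranged from below to above both. The changes were -0.16 ± 0.31 with butyrate (95% interval -0.82 to 0.51, limma, adjusted p = 0.793) and -0.25 ± 0.31 with aspirin (-0.92 to 0.42, adjusted p = 0.843). With aspirin the 3 earlier arrays were the lowest and the 24 h array the highest, a slope of 0.25 ± 0.09 per doubling of time that did not pass over all probe sets (limma, adjusted p = 0.177).

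**Figure D2:**
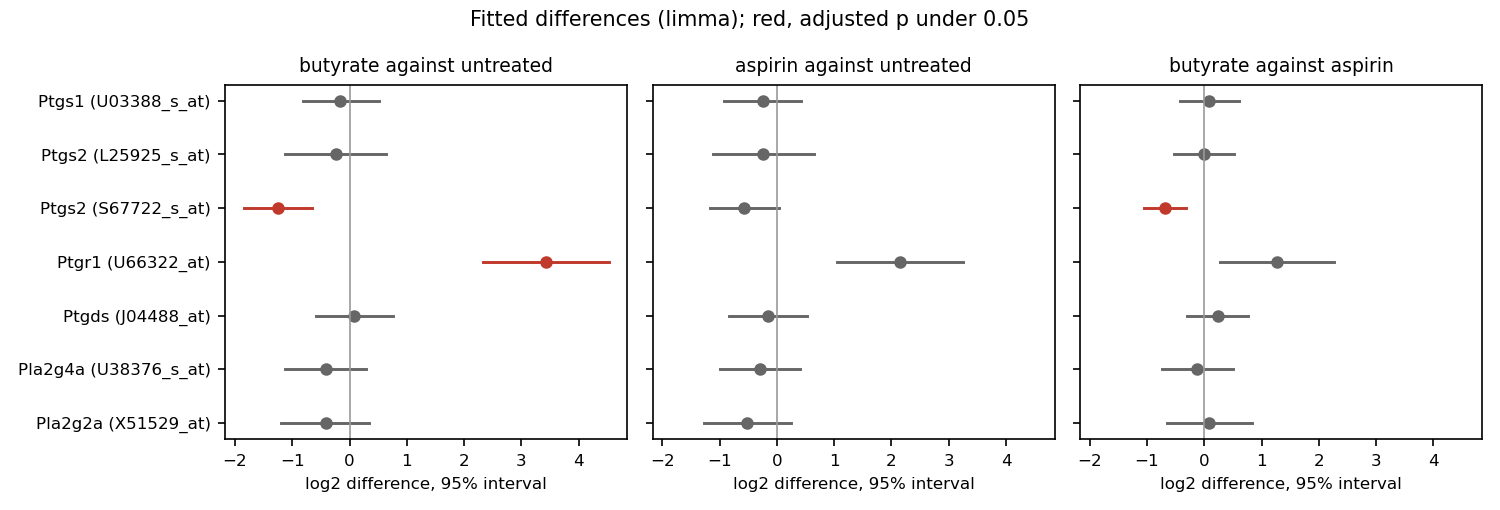
Fitted log2 differences (points, horizontal axis) with 95% intervals (lines) of the 7 tested probe sets, for butyrate against untreated, aspirin against untreated and butyrate against aspirin. Red marks an adjusted p under 0.05: Ptgr1 at 3.43 and Ptgs2 (S67722_s_at) at -1.25 in the left panel, none in the middle and Ptgs2 (S67722_s_at) at -0.68 in the right. Differences measured against values at the floor are bounds with respect to the floor alone. For Ptgs2 (S67722_s_at) every butyrate value was at the floor, without scatter.

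Upstream of the cyclooxygenases, Pla2g4a, the phospholipase that releases arachidonic acid inside the cell, read 1235.9 and 730.3 in untreated cells. With butyrate it read 1010.9, 791.9, 585.3, 541.7 and 721.0, and with aspirin 766.6, 518.8, 942.7, 863.9 and 849.2. Neither series separated from the untreated pair, whose 24 h array was lower than the 2 h array by 0.76 (log2). The changes were -0.42 ± 0.33 with butyrate (95% interval -1.12 to 0.29, limma, adjusted p = 0.445) and -0.30 ± 0.33 with aspirin (-1.0 to 0.40, adjusted p = 0.819). Without the untreated 2 h array the aspirin change was 0.08.

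Pla2g2a, a secreted phospholipase, was close to the floor. It read 119.2 and 207.8 in untreated cells, 206.6, 84.5, 51.9, 88.1 and 142.8 with butyrate, and 18.2, 31.2, 160.5, 128.5 and 93.8 with aspirin. In all, 3 of 5 butyrate and 2 of 5 aspirin arrays were at the floor, and both series overlapped the untreated pair. The fitted changes were -0.42 ± 0.36 with butyrate (95% interval -1.19 to 0.34, limma, adjusted p = 0.483) and -0.52 ± 0.36 with aspirin (-1.28 to 0.25, adjusted p = 0.642).

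Downstream, Ptgds, which makes prostaglandin D2, read 114.9 and 159.4 in untreated cells. It read 127.4, 133.2, 137.4, 119.6 and 214.2 with butyrate and 56.2, 103.5, 104.1, 200.2 and 134.7 with aspirin. The highest value was that of butyrate at 24 h, and the groups overlapped. Its changes were 0.08 ± 0.31 with butyrate (95% interval -0.59 to 0.75, limma, adjusted p = 0.909), which turned to -0.06 with quantile normalization and -0.11 with median centring, and -0.16 ± 0.31 with aspirin (-0.83 to 0.52, adjusted p = 0.918).

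Hpgd, the enzyme that begins prostaglandin breakdown, was at the floor on all 12 arrays. Its readings ran from -19.3 to 8.7 in untreated cells, from -80.7 to -6.1 with butyrate and from -92.5 to -8.4 with aspirin. It was left out of the tests as too dim, and no change can be given.

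In the counts over these genes, 1 probe set rose and 1 fell with butyrate of the 7 tested (11.7% of all tested probe sets were called, and 28.8% had an unadjusted p under 0.05). With aspirin 0 were called by limma (0.147% of all), and 1, that of Ptgr1, had an unadjusted p under 0.05, as had 10.7% of all. Between the drugs 1 was called, lower with butyrate (25.2% of all were called), and 2 had an unadjusted p under 0.05, beside 40.5% of all. The fall and the call between the drugs are those of S67722_s_at, with every butyrate value at the floor. The slopes gave 0 calls by limma for either drug (8.99% of all with butyrate and 1.65% with aspirin). With butyrate 1, that of Ptgr1, had an unadjusted p under 0.05 (24.1% of all), and with aspirin 1, that of Ptgs1 (19.7%). The median change over the 7 was -0.24 with butyrate and -0.25 with aspirin, beside 0.00 and -0.04 over all tested probe sets.

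The genes most like Ptgr1 over the 12 arrays were Ift25 (r = 0.971), Ndufv3, a subunit of respiratory complex I (0.958), and Ppp2r3a, a regulatory subunit of protein phosphatase 2A (0.945). These correlations describe arrays that share treatments and carry no p. Ift25 read 392.2 and 418.2 in untreated cells, 977.2 to 1495.0 with butyrate and 698.7 to 1051.0 with aspirin. Ndufv3 read 556.3 and 857.9, then 2366.9 to 3386.3 and 1543.2 to 2037.7. Ppp2r3a read 536.2 and 659.9, then 1022.9 to 1592.5 and 821.4 to 1272.7. All 3 lay above both untreated arrays on every treated array, as 1.65% of all tested probe sets did, but they were picked for their likeness to Ptgr1 over these same arrays. The genes most like the Ptgs2 probe set S67722_s_at were Safb (r = 0.902), Lpl, for lipoprotein lipase (0.891), and Gfi1 (0.88). Safb read 1140.9 and 627.7 in untreated cells, 406.4 to 549.7 with butyrate and 514.5 to 701.2 with aspirin. Lpl read 152.4 and 101.4, then 67.6 to 99.2 and 88.2 to 114.0, with all butyrate values but 99.2 under the floor. Gfi1 read 162.2 and 164.1, then 34.4 to 103.6 and 14.0 to 156.8, with all butyrate values but 103.6 under the floor. S67722_s_at was at the floor on every butyrate array, so values set to the same floor enter the correlations of Lpl and Gfi1.

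**Figure D3:**
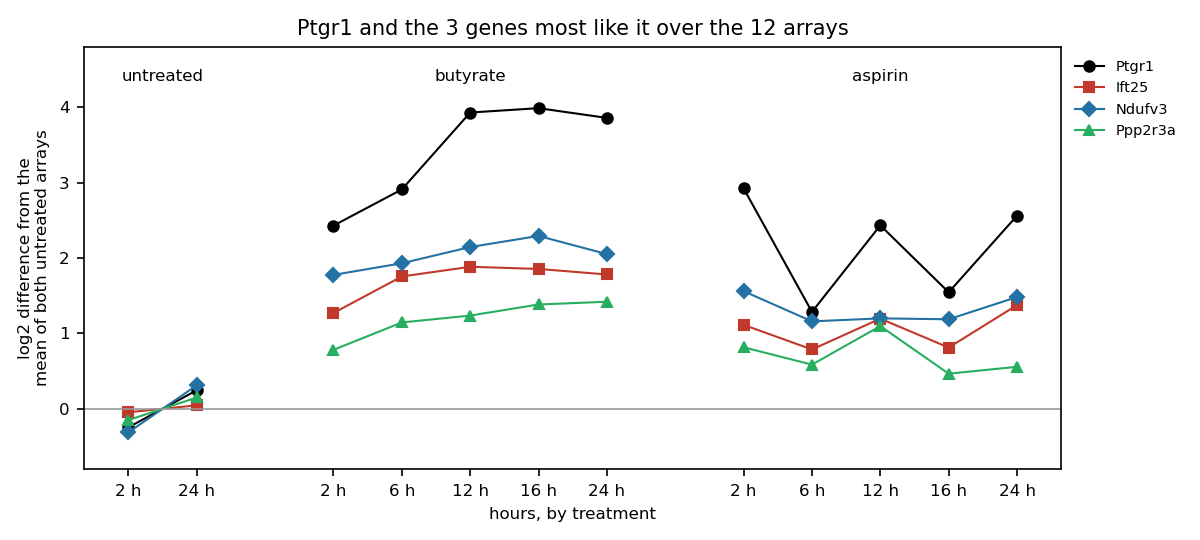
Difference of each array from the mean of both untreated arrays (log2, vertical axis) for Ptgr1 and the 3 genes that correlate most with it, with arrays ordered by treatment and hour. Ptgr1 reaches 3.99 at 16 h of butyrate and lies between 1.29 and 2.93 with aspirin.

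Other genes of prostanoid and arachidonic acid metabolism were taken from 5 lists of 92 genes, of which 50 had probe sets of their own. Of 58 tested probe sets, 4 rose and 1 fell with butyrate, where 7.78% of all tested probe sets were called higher and 3.92% lower. With aspirin 0 were called by limma (0.147% of all) and 7 had an unadjusted p under 0.05 (10.7% of all). Between the drugs 7 were higher and 3 lower with butyrate, where 15.6% of all were higher and 9.61% lower. A called slope was found for 6 with butyrate (8.99% of all) and 1 with aspirin (1.65%), and a called difference of slopes for 1 (1.73%). That difference is of a Cyp2c23 probe set that passed the filter on dim probe sets through its later butyrate arrays alone (below). Its calls also enter the counts of rises, of differences between the drugs and of butyrate slopes. These counts are near or below the shares over all tested probe sets. The median change was 0.09 with butyrate and -0.02 with aspirin. Of the 23 calls over 6 comparisons, 2 held whichever single array was left out, and 1 of them held in every alternative.

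Both of those were of Lta4h, which makes leukotriene B4, a substrate of Ptgr1. On S87522_g_at it read 3547.1 and 4824.9 in untreated cells, 5597.1, 8797.7, 12030.3, 13569.3 and 14450.5 with butyrate, and 3730.5, 4773.5, 5930.7, 6151.5 and 8323.1 with aspirin. On this probe set every butyrate array was above both untreated arrays, as on 14.7% of all tested probe sets. On S87522_at the groups overlapped, with 5322.9 at butyrate 2 h and 6272.8 in untreated cells at 24 h. On S87522_g_at Lta4h was 0.89 ± 0.10 higher with butyrate than with aspirin (limma, adjusted p = 0.00567, and at most 0.0479 in any alternative). Its other probe set, S87522_at, was 0.63 ± 0.08 higher (adjusted p = 0.00816), a call lost with median centring (down to 0.32) and without the replicate block (up to 0.0622). S87522_g_at rose against untreated cells by 1.32 ± 0.35 (adjusted p = 0.0282), a call lost without either untreated array, without butyrate 12, 16 or 24 h or without aspirin 16 h (up to 0.222), and in 3 of 9 other alternatives. The change of S87522_at was 0.46 (0.293). Its slope with butyrate, 0.22 ± 0.06 per doubling of time, was called (0.0476). That call was kept in 3 of 10 fits with an array left out and in 3 of 8 other alternatives. S87522_g_at climbed with time under butyrate, by 0.40 ± 0.04 per doubling (0.00181, but 0.078 without butyrate 2 h). Under aspirin it climbed by 0.30 ± 0.04 (0.02, but up to 0.0769 without butyrate 6 or 16 h or aspirin 2 or 24 h). Over linear hours the aspirin slope missed the threshold (0.0506).

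Among phospholipases and their inhibitor, 1 of 11 probe sets rose and 1 fell with butyrate, beside 7.78% and 3.92% of all. Pla2g6, a calcium-independent phospholipase, rose by at least 1.55 ± 0.47 (limma, adjusted p = 0.047). That call was kept in 2 of 9 other alternatives, with a value down to 0.46 at a floor of 200. It was lost without any 1 of the butyrate 6, 12, 16 and 24 h arrays. With aspirin Pla2g6 changed by at least 1.38 ± 0.47 (limma, adjusted p = 0.381), and the difference between the drugs was 0.16 (0.736). Pafah1b1, a subunit of platelet-activating factor acetylhydrolase, fell by 0.65 ± 0.19 on AA801441_at (0.0467), a call kept in 3 of 9 other alternatives. That probe set was also lower than with aspirin, at -0.47 ± 0.10 (0.0208), kept in 8 of 8 but lost without any 1 of the 6, 12, 16 and 24 h arrays of either drug (up to 0.0716). The other Pafah1b1 probe sets were not called, at -0.91 (0.0721) and 0.11 (0.816) against untreated cells and -0.71 (0.0683) and 0.39 (0.139) against aspirin. Anxa1, for annexin A1, an inhibitor of phospholipase A2, had called slopes with butyrate of 0.20 and 0.22 per doubling of time on its probe sets (0.0341 and 0.0225), which were lost with median centring and with some arrays left out (up to 0.119 and 0.17). On rc_AI171962_s_at it was also 0.39 ± 0.08 higher with butyrate than with aspirin (0.0241), kept in 4 of 8 other alternatives and down to 0.08 with median centring, and on S57478cds_s_at the difference was 0.31 (0.075).

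Of 8 probe sets of prostaglandin reductases and transporters, 1 rose with butyrate (7.78% of all). It was D89070cds_s_at of Cbr1, the carbonyl reductase that converts prostaglandin E2 to F2alpha, at 0.95 ± 0.27 (limma, adjusted p = 0.0372). Without untreated 2 h it was 0.50 (0.299) and without untreated 24 h 1.41, and the call was kept in 3 of 9 other alternatives. With aspirin D89070cds_s_at changed by 0.76 (0.387), and the difference between the drugs was 0.19 (0.284). The other Cbr1 probe set was at 0.74 (0.0825) with butyrate and 0.71 (0.402) with aspirin. None of 7 probe sets of terminal synthases and none of 8 of the receptors were called by limma against untreated cells with either drug (11.7% and 0.147% of all), and 1 and 2 of them had an unadjusted p under 0.05 with butyrate (28.8% of all). Akr1b1 on M60322_at differed by -0.42 ± 0.09 between butyrate and aspirin (0.0223, kept in 8 of 8 other alternatives but up to 0.0819 with an array left out), and on M60322_g_at by -0.34 (0.291). The prostacyclin receptor gene Ptgir was 0.90 ± 0.24 higher with butyrate than with aspirin (0.0425, and up to 0.138), kept in 3 of 8. Ptgir read 847.0 in untreated cells at 2 h and -245.6 at 24 h.

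In the leukotriene and epoxide branch 2 of 24 probe sets were called higher with butyrate (7.78% of all), that of Lta4h and rc_AI169372_g_at of Cyp2c23, an arachidonic acid epoxygenase. The latter was at the floor on both untreated arrays, on butyrate 2 h and on every aspirin array, and read 411.4, 463.3, 1254.2 and 1173.1 at 6, 12, 16 and 24 h of butyrate. It passed the filter on dim probe sets through those 4 arrays alone, so its calls (also against aspirin, in its butyrate slope and in the difference of slopes) support nothing and its readings are given as a description. With no filter its change from untreated cells was not called (adjusted p = 0.137). The other Cyp2c23 probe sets changed by 0.23 (0.626) and 0.16 (0.787).

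Of Ephx2, the soluble epoxide hydrolase, X65083cds_at had a called slope of 0.37 ± 0.07 per doubling of time with butyrate (limma, adjusted p = 0.0206, kept in 3 of 8 other alternatives). It was 0.66 ± 0.18 higher with butyrate than with aspirin (0.0423), a call kept in 0 of 8 other alternatives, with a value down to 0.08 at a floor of 200. The other tested Ephx2 probe sets were not called, at -0.04 (0.923) and -0.32 (0.708) against aspirin. Cyp4a8 on rc_AA893011_at was 0.70 higher than with aspirin (0.0439), kept in 2 of 8 and down to 0.30, and on M37828_at the difference was 0.33 (0.379). For Cyp2c11 on J02657_s_at the difference was -0.65 (0.0407), kept in 4 of 8 and at -0.04 with a floor of 200. With an array left out the adjusted p reached 0.119 for Ephx2, 0.123 for Cyp4a8 and 0.124 for Cyp2c11.

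**Figure D4:**
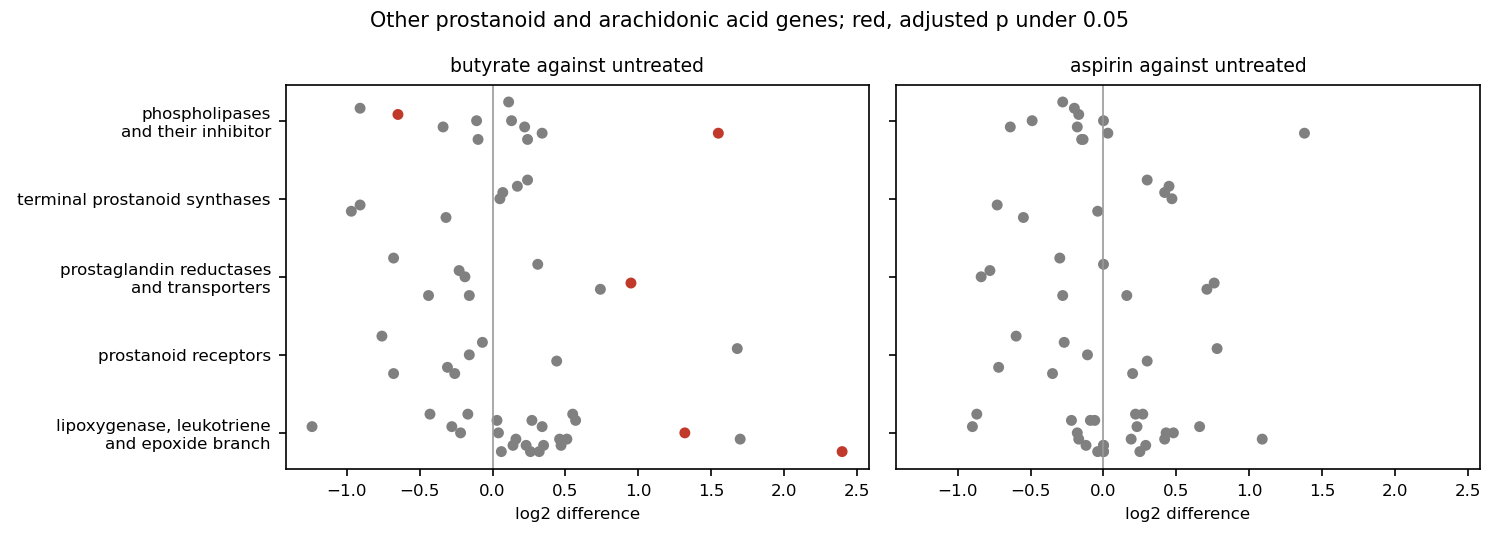
Log2 differences from untreated cells (horizontal axis) of the 58 tested probe sets in 5 lists of related genes, with butyrate on the left and aspirin on the right. Each point is a probe set, spread vertically for legibility, and red marks an adjusted p under 0.05. There are 5 red points with butyrate, 4 to the right of 0 and 1 to the left, and 0 with aspirin. Among those to the right is Cyp2c23 (rc_AI169372_g_at), which passed the filter on dim probe sets through its later butyrate arrays alone.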

How the data were processed

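The deposited table gives 1 linear intensity per probe set and array, and between 21.5 and 25.5% of an array's values were below 0. How the authors computed and scaled these intensities is not stated in the labels, and array means after trimming 2% at each end lay between 1001.52 and 1002.08, so no further normalization was applied. Of 8799 probe sets 59 controls were removed. Values under 90.91, the absolute value of the 10th percentile, were raised to it before log2, which shrinks changes of dim genes. Dim probe sets, whose average log2 value lay below 6.54 (the 30th percentile), were dropped, leaving 6118.

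limma 3.58.1 (R 4.3.3; lmFit, eBayes with a variance trend) compared each drug with untreated cells on all 12 arrays, and the drugs with each other over the 10 treated arrays, the hour being a block. Slopes over log2 hours used the same 10 arrays. P-values were adjusted by the Benjamini-Hochberg method over all tested probe sets, with a threshold of 0.05, and intervals are 95%. The words "at least" mark changes between groups that did not overlap where the lower group had values at the floor. They refer to the floor alone, and the interval of a fit can reach below such a value. Where groups overlapped, values at the floor can also understate a change. The fits were tested on simulated data. Precision is limited by how few arrays there are.

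The members and lists were chosen with earlier results of these data known. All member probe sets, called members of the other lists (at most 12) and the 3 probe sets of other genes most correlated with each member probe set called against untreated cells are named. The E box was added to the motifs with the Ptgs2 window in view. Alternatives were other floors, asinh without a floor, quantile normalization, median centring, no filter, no variance trend, time terms and leaving out each array.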

Additional observations from a re-analysis of the deposited data

Results flagged for a closer look

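On the Ptgs2 probe set L25925_s_at the aspirin 12 h array stood apart from the other aspirin arrays. It read 41.2, at the floor (log2 6.51), while the others lay between 203.3 and 252.0. The gap was 0.789 of the group's range. On the Ptgds probe set the butyrate 24 h array, at 214.2 (log2 7.74), stood above the other butyrate arrays, which reached 137.4 (0.762 of the range). These are 2 of 13 groups of 5 arrays checked, where about 1 in 20 would be marked by chance.

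The Ptgs2 probe set S67722_s_at differed between the drugs, with butyrate lower than aspirin by at least 0.68 on the log2 scale (value -0.68, limma, adjusted p = 0.0258). Every butyrate value of that probe set was at the floor. The call was kept in 2 of 10 fits with an array left out, and the value was -0.02 with a floor of 200. Those 2 fits were without butyrate 2 h and without aspirin 2 h. As the hour was a block, leaving out either drug's array of an hour gave the same difference, so the 10 fits are not separate. The other Ptgs2 probe set was not called.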

How the results depend on the processing

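The rise of Ptgr1 with butyrate kept its direction in all 12 leave-one-out fits (3.18 to 3.67) and 9 other alternatives (2.54 to 3.86), and its call in all but 1. Of the 7 tested probe sets 2 were called with butyrate in the fit reported. The count was 1 with a floor of 200 and with time as a factor, 0 on the 2 and 24 h arrays with time as a replicate block, and 1 to 2 with an array left out. Between the drugs 1 was called in the fit reported, 0 with a floor of 200 and with no filter, 2 on the asinh scale and without the replicate block, and 0 to 2 with an array left out. The counts for aspirin and for both slopes were 0 in each alternative.

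Values that were not called and changed sign were those of Ptgs1 between the drugs (-0.24 with quantile normalization, -0.21 with median centring, down to -0.01 and up to 0.23 with an array left out) and in its butyrate slope (-0.06 and -0.01). For Ptgds they were those with butyrate (-0.06 and -0.11, and -0.16 to 0.32 with an array left out), with aspirin (-0.39 to 0.08 with an array left out) and between the drugs (-0.01 and -0.07). The Ptgds slope with butyrate ran from -0.01 to 0.26 with an array left out, and the difference of its slopes was 0.02 with a floor of 200 and -0.23 to 0.04 with an array left out. For Pla2g2a they were those with butyrate (0.13 on the 2 and 24 h arrays with time as a replicate block). They were also those between the drugs (-0.21 with median centring, -0.18 to 0.32 with an array left out). With an array left out the Pla2g2a butyrate slope ran from -0.40 to 0.27 and the difference of its slopes from -0.50 to 0.17. Under the same fits Pla2g4a ran from -0.68 to 0.08 with aspirin and from -0.30 to 0.02 between the drugs, Ptgs2 on L25925_s_at from -0.33 to 0.03 with aspirin, the aspirin slope of Ptgs2 on S67722_s_at from -0.28 to 0.13 and the difference of its slopes from -0.13 to 0.28, the aspirin slope of Ptgr1 from -0.32 to 0.52 and the difference of its slopes from -0.05 to 0.79. The cause was not tested. Median centring lowered the median of all butyrate changes to -0.19 (0.00 before). The floor limits what can be said of Hpgd, Pla2g2a and the Ptgs2 fall.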
